A study of Arabidopsis thaliana with 75 samples.

Results

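The transcript levels of the gl2 mutant were compared, over all genes measured, with the mean of 3 mutants that lack parts of the regulatory complex acting upstream of GL2. The arrays were chosen by genotype and facility from the sample labels, without use of any measured value: all Michigan arrays of the gl2, wer myb23, gl3 egl3 and ttg lines, 12 of the 75 arrays in the series. Each line was measured on 3 arrays, and the difference reported is the gl2 mean minus the mean of the group means of the 3 upstream lines, called the hairy lines below because they form extra root hairs. A gene held higher in gl2 than in these lines is a candidate target of the upstream complex that does not need GL2, which is the question the comparison addresses.

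The lines, as labelled, were gl2-1 WER::GFP, wer-1 myb23-1 WER::GFP, gl3-1 egl3-1 WER::GFP and ttg1-13 WER::GFP. All carried the WER::GFP transgene, a green fluorescent reporter that was crossed into each line from a single insertion on chromosome 5. The WER promoter is active in both epidermal cell types, preferentially in non-hair cells. Seedlings were grown for 5 days at 23 °C in continuous light on MS medium with 1% sucrose, root tips of about 2 mm were cut, and WER::GFP-positive protoplasts, which were pooled from many seedlings for each replicate, were sorted before RNA was hybridised to Affymetrix ATH1 arrays. The cpc try line, which makes only non-hair cells, and wild-type Columbia are quoted for context, and so are 12 Duke arrays of cpc try and the 3 hairy lines. One mutant line stood for each genotype, so an effect of the mutation and one of the line cannot be told apart.

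In the root epidermis of Arabidopsis, cells in one position form root hairs and cells in the other position stay hairless. In the hairless position, a MYB protein (WER or MYB23), a bHLH protein (GL3 or EGL3) and the WD-repeat protein TTG1 act together to switch on GL2, which encodes a homeodomain-leucine zipper factor that represses hair outgrowth, and also CPC, TRY and ETC1, which encode small MYB proteins that move to neighbouring cells and block the complex there. Loss of the complex or of GL2 turns hairless-position cells into hair cells. TTG1 and the bHLH proteins also act on flavonoid genes and, with TTG2, in seed coat and leaf hair development.

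Values were log2 signals, so that a difference of 1 is a 2-fold change, and 21440 genes were measured. Medians of the 12 arrays lay between 6.64 and 6.78. Correlations between replicates of a line were 0.95 to 0.99, and those between gl2 and hairy arrays 0.95 to 0.98, all across genes, which are not independent replicates. The arrays were grouped here by a token in the sample descriptions, either a number (numbered) or a word starting with S or x. These groups are called array series here, and whether they are batches is not known. The gl2 arrays were 1 each numbered, S and x, whereas those of gl3 egl3 and ttg were all numbered. The wer myb23 line had 2 numbered arrays and 1 of series S. Wild type had 1 each numbered, S and x, like gl2, and the Michigan cpc try arrays were all numbered. Array series and genotype were therefore partly confounded. The study's core lists hold 54 non-hair genes, which are higher in hairless than in hairy lines, and 154 hair genes, which are lower. Over the core non-hair genes the gl2 arrays had mean levels of 6.56, 6.49 and 6.56. The wer myb23 arrays had 6.40, 6.92 and 6.27, the gl3 egl3 arrays 6.10, 7.17 and 6.30, the ttg arrays 6.60, 6.53 and 6.38, and wild-type arrays 7.08 to 7.24, so that on these genes gl3 egl3 replicate 2 was at the level of wild type. Values without that array are given beside several genes that it moved. It was picked by its level on these core genes, so for non-hair genes such values are raised partly by that choice.

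At a false discovery rate (FDR) of 5% in limma's moderated test, 85 of the 21440 genes (0.396%) differed between gl2 and the hairy lines. Of these, 52 (0.243%) were higher and 33 (0.154%) were lower in gl2, and 69 of the 85 differed more than 2-fold, as did 350 of all genes (1.63%). Each array holds RNA of many pooled cells, so that fewer cells of a type and less RNA per cell cannot be told apart. Without adjustment, 1496 genes (6.98%) had a p under 0.05. The 3 gl2 values lay above all 9 hairy values for 118 genes (0.55%) and below all of them for 223 (1.04%). Of the called genes this held for 23 of the higher and 22 of the lower. The calls rest on the same values and so favour such genes. Over all genes the median difference was -0.02 and the median standard error 0.25. In data simulated for this comparison with independent noise, 40% of genes changed by 1 log2 unit and 93% of those changed by 2 were recovered. Changes near 2-fold were thus often missed in such data. The count fell most without gl2 replicate 2, to 26, or gl2 replicate 3, to 34, and was 82 without gl2 replicate 1. With the array series as a factor 27 genes were called.

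Set against single lines in the same fit, gl2 differed from wer myb23 in 130 genes (0.606%), from gl3 egl3 in 18 (0.084%) and from ttg in 203 (0.947%). The gl3 egl3 mean includes replicate 2, which stood apart from its sister arrays. AT5G43030 on chromosome 5, for example, had 2.78, 9.18 and 2.39 in gl3 egl3 and averaged 8.57 in wild type. The low count of 18 therefore does not show that gl2 was most like gl3 egl3. In 10 genes (0.0466%) gl2 differed from each of the 3 lines in the same direction, 5 higher and 5 lower. Of these 10, 9 lay on chromosome 1 within 1000 measured genes of GL2. The count of 10 was 17 without gl2 replicate 1, 6 without gl2 replicate 2 and 6 without gl3 egl3 replicate 3.

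The mutated and patterning genes themselves came first. Of the 16 specification genes, 14 were measured (GL3 and ETC3 have no values here), and limma called 1, TTG1 (AT5G24520). TTG1 had 8.55, 8.39 and 8.01 on the gl2 arrays and 3.45, 2.87 and 3.81 on the ttg arrays, with means of 8.57 in wer myb23 and 8.55 in gl3 egl3. The low level on every ttg array carried the whole difference, and the values bear out the ttg label. The other mutated genes gave no such check. WER (AT5G14750) had means of 11.30 in gl2 and 10.84 in wer myb23, MYB23 (AT5G40330) 7.23 in gl2 and 6.84 in wer myb23, and EGL3 (AT1G63650) 6.94 in gl2 and 7.18 in gl3 egl3.

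GL2 (AT1G79840) was still detected in the gl2 mutant. Its values were 8.00, 7.42 and 7.70 on the gl2 arrays, 7.96, 8.94 and 7.10 on wer myb23, 2.92, 8.52 and 4.79 on gl3 egl3, and 7.37, 6.90 and 6.67 on ttg. The gl2 values thus lay above those of ttg and of 2 gl3 egl3 arrays, and within those of wer myb23. The cpc try arrays, where every cell is of the hairless type, averaged 10.37 and wild type 8.31. Over all 9 hairy arrays the difference of 0.91 did not pass (standard error 0.49, adjusted p = 0.774 in limma). Without gl3 egl3 replicate 2 it was 1.43 (standard error 0.33, adjusted p = 0.0271 in limma), which passed. That value came mostly from the other 2 gl3 egl3 arrays (2.92 and 4.79), and is not a difference from each hairy line.

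TTG2 (AT2G37260), a WRKY factor that acts downstream of the complex in leaf hairs and seed coats, behaved in the same way. It had 6.32, 6.88 and 7.30 in gl2, 6.21, 7.18 and 6.64 in wer myb23, 4.01, 7.16 and 4.29 in gl3 egl3, and 6.17, 6.43 and 6.70 in ttg. Only the gl3 egl3 arrays other than replicate 2 fell clearly below gl2. The difference was 0.75 over all arrays (adjusted p = 0.628 in limma) and 1.08 without gl3 egl3 replicate 2 (standard error 0.23, adjusted p = 0.0123 in limma). PTR1 (AT3G54140), a peptide transporter gene of the core non-hair list, had 7.74, 8.25 and 8.07 in gl2 and from 5.87 to 8.69 on the hairy arrays, with a median of 6.85. Its highest hairy value was again that of gl3 egl3 replicate 2. The difference was 1.13 (adjusted p = 0.28 in limma), and 1.38 without that array (standard error 0.33, adjusted p = 0.0444 in limma).

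Among the mobile inhibitors, TRY (AT5G53200) had the largest difference. It had 8.68, 8.47 and 8.83 in gl2, against 8.33, 4.66 and 7.17 in wer myb23, 6.43, 8.68 and 8.02 in gl3 egl3, and 7.18, 7.79 and 6.65 in ttg. The gl2 arrays sat at the upper end of the hairy range and close to wild type, which averaged 9.10, while cpc try averaged 11.71. TRY is itself mutated in cpc try, by a nonsense substitution as the paper lists it, so 11.71 is a level of the mutant allele. Its 1.45 log2 difference did not pass with all arrays (standard error 0.46, adjusted p = 0.244 in limma) nor without gl3 egl3 replicate 2 (1.61, adjusted p = 0.134 in limma). CPC (AT2G46410) differed by 0.14, ETC1 (AT1G01380) by 0.40 (0.65 without gl3 egl3 replicate 2) and ETC2 (AT2G30420) by 0.05. Among the bHLH genes the differences were -0.80 for EGL3, -0.63 for MYC1 (AT4G00480) and 0.04 for TT8 (AT4G09820). They were -0.23 for SCM (AT1G11130), the receptor-like kinase that reads cell position, and -0.08 for GEM (AT2G22475).

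Over the 54 core non-hair genes the median difference was 0.06, beside -0.02 over all genes. Of them 28 were higher and 26 lower in gl2, and limma called 1, lower. The list was chosen by the study on arrays that include these 9 hairy ones, and so is not independent of their levels. Without gl3 egl3 replicate 2 the median was 0.08, and 4 of the 54 were called: TTG2, GL2 and PTR1 higher, where 0.238% of all genes were called higher, and AT3G19320 lower, where 0.103% of all genes were called lower. This array was singled out by its high level on these same genes. Leaving it out raises their differences partly by construction, so the higher calls are no separate support. Without both that array and wer myb23 replicate 2, an alternative chosen after seeing the data, these 4 genes were called in the same directions (0.257% of all genes higher, 0.0793% lower), with differences of 1.16 for TTG2, 1.58 for GL2, 1.41 for PTR1 and -1.76 for AT3G19320. These were the hairy arrays with the highest level on this list, so higher values in gl2 were again partly built in. The shares of all genes are not a like background here, and both fits share their other arrays.

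Over 1.3-fold against each hairy line, without a test, 6 core non-hair genes were higher in gl2 (3.21% of all genes) and 7 were lower (2.39% of all genes). The 6 higher were TRY, PTR1, NAC13 (AT1G32870), ICE1 (AT3G26744), AT3G29410 and RBK1 (AT5G10520). None of these 6 passed 5% FDR with all arrays, with adjusted p-values from limma between 0.244 and 0.753. ICE1 encodes a bHLH factor of the cold response, NAC13 a NAC factor, and RBK1 a kinase that binds ROP GTPases. They were chosen for naming after their values were seen.

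One core non-hair gene was called lower in gl2, where 0.154% of all genes were. AT3G19320, a leucine-rich repeat protein gene and the called member of the list, had 4.63, 4.34 and 4.71 in gl2 and a lowest, median and highest value of 5.65, 6.66 and 9.29 on the hairy arrays. No hairy array reached down to the gl2 level. This 5.14-fold lower signal passed (log2 -2.36, standard error 0.47, adjusted p = 0.00605 in limma), and the call was lost without gl2 replicate 2 and with the array series as a factor. In cpc try the gene averaged 9.28, in wild type 7.78. For 11 of the 54 core non-hair genes gl2 had the lowest mean of all 21 Michigan groups, and it had the highest for 0. The list holds genes that are low in hairy lines, and loss of GL2 also gives extra hairs. A low rank of gl2 was therefore partly built in, and the share of all genes is not a like background. Of the 154 core hair genes, gl2 had the highest mean for 16 and the lowest for 0. Among all genes gl2 was lowest for 727 (3.39%) and highest for 555 (2.59%).

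These 11 genes included, chosen after their values were seen, AT2G45220, a pectin methylesterase gene, and TBL38 (AT1G29050), a gene of the cell wall acetylation family. AT2G45220 had 4.77, 4.78 and 4.95 in gl2 against a hairy range of 4.77 to 8.98, where the highest value was that of gl3 egl3 replicate 2, and wild type averaged 9.21. Its difference was -1.30 (adjusted p = 0.568 in limma), and -0.85 without that array (adjusted p = 0.712 in limma). TBL38 had 8.62, 7.66 and 7.97 in gl2 and averaged 9.60 in wer myb23, 8.93 in gl3 egl3 and 8.69 in ttg, a difference that did not pass (-0.99, adjusted p = 0.636 in limma) and was -0.77 without gl3 egl3 replicate 2. XTH17 (AT1G65310), which encodes a xyloglucan endotransglucosylase and is among the genes linked to GL2 in earlier work, had 7.74, 7.47 and 7.85 in gl2. The wer myb23 arrays had 9.55, 11.11 and 9.33, the gl3 egl3 arrays 5.02, 10.30 and 7.16, and the ttg arrays 9.45, 8.69 and 8.27. So XTH17 was lower in gl2 than on all wer myb23 and ttg arrays but not than on gl3 egl3, and its difference of -1.08 did not pass (adjusted p = 0.69 in limma). Without gl3 egl3 replicate 2, on which it was high, the difference was -0.61 (adjusted p = 0.809 in limma). Of the 4 GL2-linked genes none was called, although 1 was lower at an unadjusted p under 0.05, as were 3.74% of all genes.

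**Figure D1:**
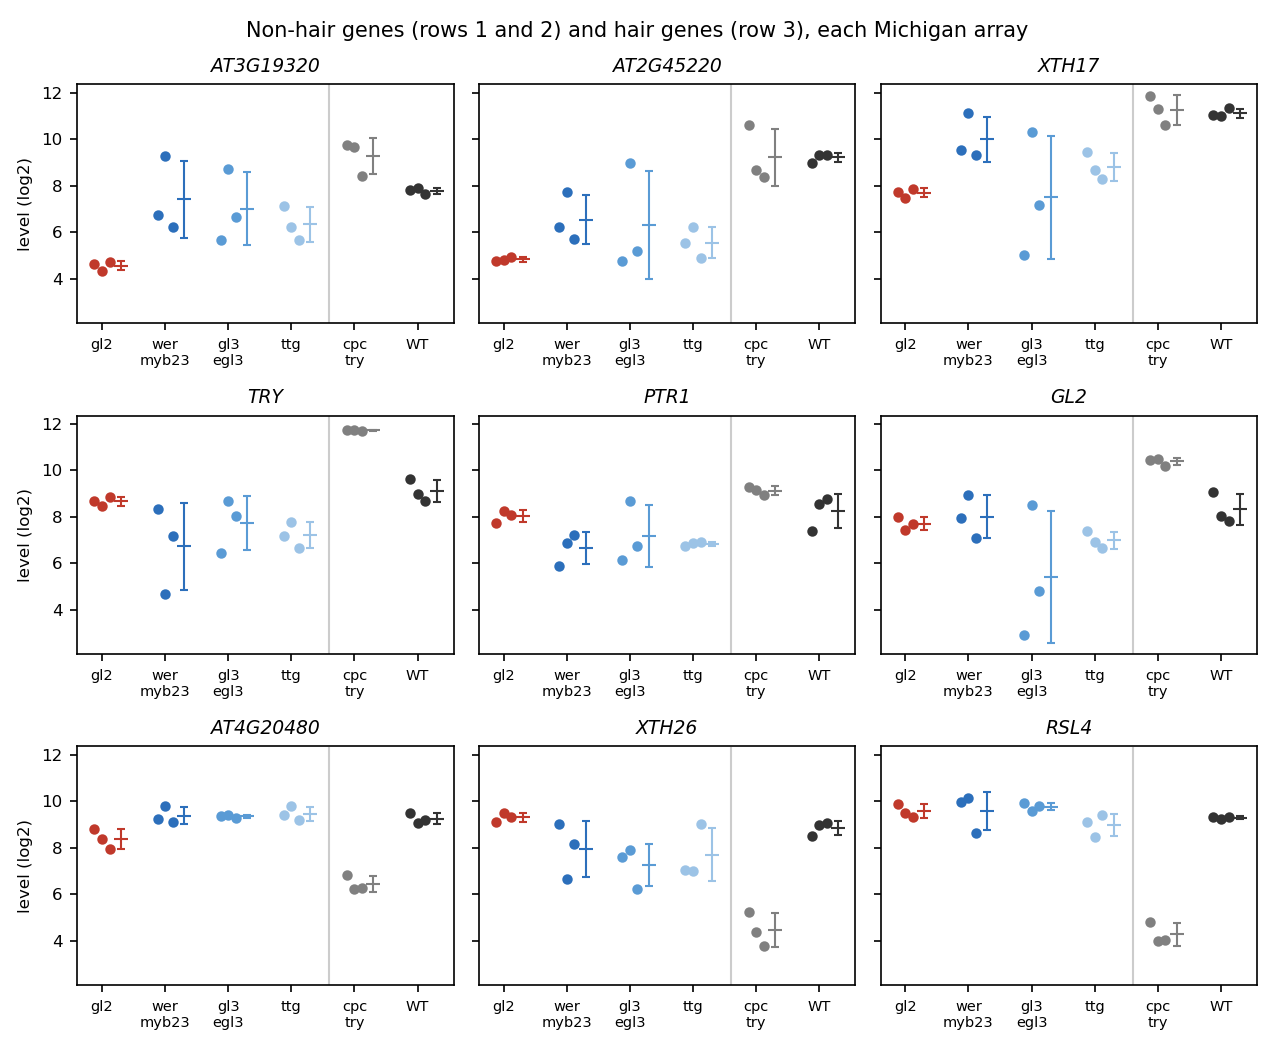
Log2 signal (vertical axes) of 9 core genes on each array of gl2, wer myb23, gl3 egl3, ttg, cpc try and wild type (horizontal axes); points are arrays and bars are the group mean ± SD (n = 3). The non-hair gene AT3G19320 was lower on the gl2 arrays than on every hairy array, while for GL2 and TRY the gl2 arrays overlapped the hairy ones.

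Of the 154 core hair genes, 151 (98.1%) lay within 2-fold in gl2 and the hairy lines, beside 98.4% of all genes. Their median difference was 0.11, 97 were higher and 57 lower, and 1 was called, lower (0.154% of all genes). That gene, AT4G20480, had 8.80, 8.36 and 7.93 in gl2 against a lowest, median and highest value of 9.09, 9.38 and 9.78 on the hairy arrays. Its difference of -1.03 passed narrowly (standard error 0.25, adjusted p = 0.0428 in limma), and the call was lost in 9 of the 12 fits that left out 1 array, with differences between -1.24 and -0.81. The fits that kept it were those without gl2 replicate 1, ttg replicate 3 or wer myb23 replicate 3.

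XTH26 (AT4G28850), another xyloglucan-modifying enzyme gene, was the core hair gene with the largest difference. It had 9.10, 9.49 and 9.34 in gl2 against 6.22 to 9.04 on the hairy arrays, with a median of 7.62. The values did not overlap, but the difference of 1.67 did not pass (standard error 0.63, adjusted p = 0.455 in limma). Of the bHLH genes that drive hair growth, 4 were measured and none was called, with differences between -0.15 and 0.22. RHD6 (AT1G66470), which starts hair formation, differed by -0.12 and RSL4 (AT1G27740), which sets hair length, by 0.13. None of the 18 hair growth genes was called (median 0.13), and none of the 10 nutrient uptake genes (median -0.09). At an unadjusted p under 0.05, 0 of either list passed.

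**Figure D2:**
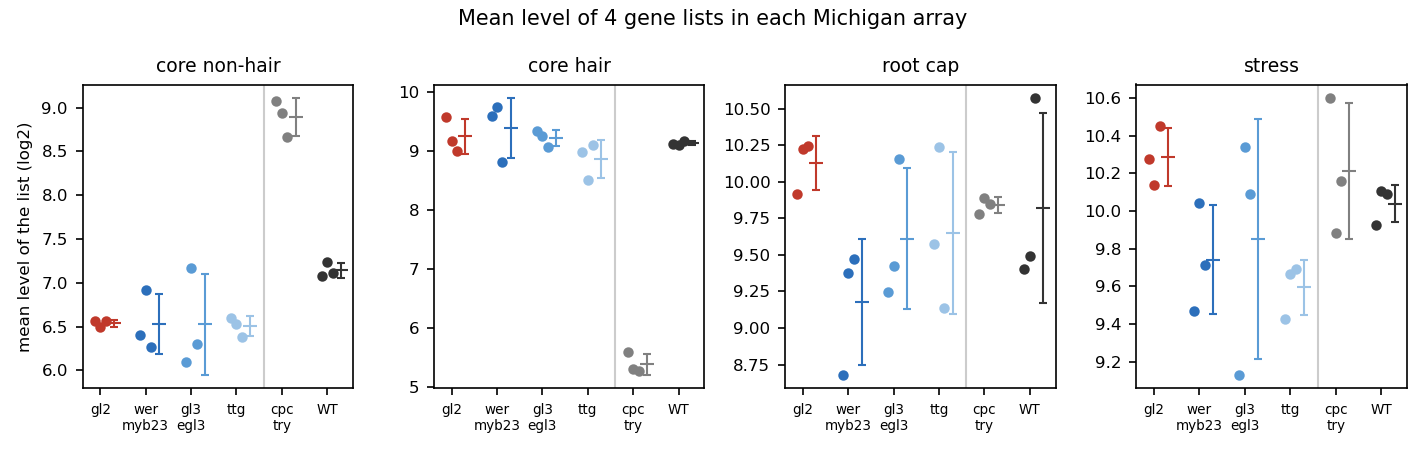
Mean log2 signal (vertical axes) of the core non-hair, core hair, root cap and stress lists on each array of gl2, the 3 hairy lines, cpc try and wild type (horizontal axes); each point is 1 array and bars are the group mean ± SD (n = 3). Core non-hair levels were 6.49 to 6.56 in gl2 and 6.10 to 7.17 on the hairy arrays, with 8.66 to 9.08 in cpc try and 7.08 to 7.24 in wild type.

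The share of genes called differed between chromosomes. Of the 85, 34 lay on chromosome 1 (0.618% of its measured genes), 4 on chromosome 2 (0.115%) and 18 on chromosome 3 (0.425%). Chromosome 4 held 13 (0.413%) and chromosome 5 held 14 (0.288%), where the share over all genes was 0.396%. The other 2 (AT3G18540 and AT1G48598) had no place in TAIR10.1 and are counted away from the loci. Places were counted in measured genes along the TAIR10.1 order, with windows chosen after seeing the data. Within 1000 measured genes of GL2, which lies near the end of chromosome 1, 22 of 1095 genes were called (2.01%). Within 300 genes 11 of 395 were called (2.78%), and within 100 genes 7 of 195 (3.59%). Around TTG1 on chromosome 5, 11 of 2001 genes were called within 1000 measured genes (0.55%) and 6 of 201 within 100 (2.99%). The other 18344 genes held 52 called genes (0.283%). The paper lists the ttg allele as a deletion induced by fast neutrons. Its extent was not examined here, and the part of chromosomal position in these differences was not tested.

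**Figure D3:**
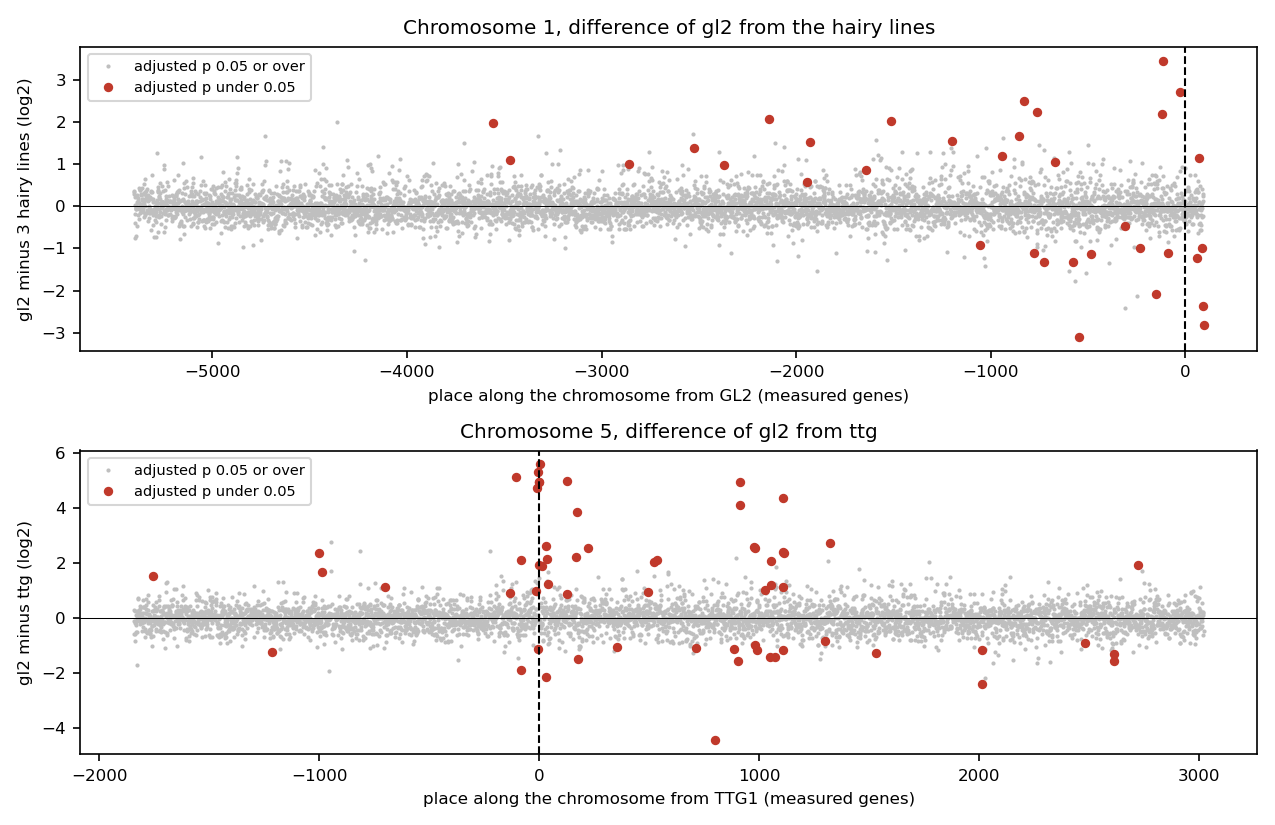
Log2 difference of each gene (vertical axes) by its place from the mutated gene in measured genes (horizontal axes), for gl2 minus the 3 hairy lines around GL2 on chromosome 1 and for gl2 minus ttg around TTG1 on chromosome 5; red points passed 5% FDR in limma. Called genes near GL2 went in both directions, and the large differences near TTG1 were nearly all higher in gl2.

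Near GL2, 9 called genes were higher and 13 lower in gl2. The values of gl2 and the hairy lines did not overlap for 8 of the 9 and 11 of the 13. Over all genes the gl2 values lay above all hairy values for 0.55% and below for 1.04%. The calls rest on the same values, so the lack of overlap is no separate support. For none of the 22 was wild type nearer to gl2 than to the hairy mean. CYP708A3 (AT1G78490), a cytochrome P450 gene 113 measured genes from GL2, had the largest difference of the 85 called genes. It had 7.13, 8.34 and 8.59 in gl2, against a lowest, median and highest hairy value of 4.00, 4.67 and 5.01, a 10.9-fold difference (log2 3.45, standard error 0.42, adjusted p = 4.88e-07 in limma). Wild type averaged 4.95 and cpc try 4.42. The gl2 mean of 8.02 was the highest of the 21 Michigan groups, of which the next averaged 7.19.

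AT1G79520, a cation efflux family gene 29 measured genes from GL2, had 9.08, 9.11 and 9.77 in gl2 and from 6.07 to 7.61 on the hairy arrays, with a median of 6.55. The 2.72 log2 difference (standard error 0.23, adjusted p = 3.38e-11 in limma) was kept in every alternative tried. AT1G70080, a terpene synthase gene, had 10.46, 11.01 and 10.74 in gl2. Its hairy lines differed among themselves, with means of 6.77 in wer myb23, 8.71 in gl3 egl3 and 9.22 in ttg, and the difference of 2.50 passed against their mean (adjusted p = 4.39e-05 in limma). Further genes higher in gl2 were AT1G70880, a major latex protein relative (2.25), AT1G78410, a VQ-motif gene (2.19), and AT1G69800, a CBS-domain gene (1.67). For these 3 the adjusted p-values from limma were at most 0.000326, and no gl2 value overlapped a hairy one.

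On the lower side, AT1G73530, an RNA-binding protein gene, had 5.04, 5.57 and 5.73 in gl2 and a lowest, median and highest hairy value of 7.41, 8.41 and 9.49. This 8.55-fold lower level (log2 -3.10, standard error 0.41, adjusted p = 4.32e-06 in limma) was the largest decrease among the called genes. The adjacent genes AT1G80960 and AT1G80970, 93 and 94 measured genes from GL2, were both low in gl2. AT1G80970 had 3.64, 3.58 and 3.90 in gl2 and 5.83 to 6.96 on the hairy arrays. AT1G80960 had 4.41, 3.98 and 3.64 in gl2 against 5.65 to 7.17 on the hairy arrays. Their differences were -2.81 and -2.36 (adjusted p = 9.48e-08 in limma for each).

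AT1G78070, a WD-repeat protein gene, was lower by 2.09 log2 units (adjusted p = 0.0232 in limma), with 8.15, 8.14 and 7.38 in gl2. The smaller decreases took in GDPD4 (AT1G71340, -1.33), a glycerophosphodiesterase gene, AT1G73170 (-1.33), AT1G80570 (-1.22), the receptor-like protein gene RLP16 (AT1G74200, -1.14) and GH9B1 (AT1G70710, -1.10), a cellulase family gene. GH9B1 had 8.29, 8.46 and 9.26 in gl2 and 9.39 to 10.33 on the hairy arrays, and it was lower in gl2 than in each of the 3 lines. Of these lower genes, GDPD4 kept its call when any 1 array was left out, GH9B1 lost it without gl2 replicate 2, AT1G73170 without gl2 replicate 2 or 3, AT1G78070 without gl2 replicate 1, 2 or 3, and AT1G80570 without gl2 replicate 2 or 3 or wer myb23 replicate 2. RLP16 lost its call in 8 of the 12 fits without 1 array, those without gl2 replicates 1, 2 and 3, gl3 egl3 replicates 2 and 3, ttg replicates 1 and 3 and wer myb23 replicate 2. Of the 22 genes near GL2, gl2 had the highest mean of the 21 Michigan groups for 6 and the lowest for 10. Over all genes these shares were 2.59% and 3.39%. Calling on the same gl2 arrays favours such ranks.

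Most genes called near TTG1 were low in ttg and at 1 level in the other lines. Of the 201 genes within 100 places of TTG1, limma called 15 for gl2 against ttg (7.46%), beside 0.947% of all genes. It called 0 for gl2 against wer myb23 and 0 for gl2 against gl3 egl3. At an unadjusted p under 0.05 these counts were 45 (22.4%), 19 (9.45%) and 6 (2.99%). Shares over all genes at that threshold were not counted for single lines. AT5G24450 had 8.73, 8.47 and 8.43 in gl2 and 3.16, 3.29 and 3.20 in ttg, with means of 8.66 in wer myb23 and 8.40 in gl3 egl3. AT5G24430 had 8.61, 8.81 and 8.24 in gl2 and 3.61, 4.39 and 3.48 in ttg. AT5G24490 had 7.37, 7.98 and 9.20 in gl2 and 2.80, 3.24 and 3.68 in ttg. No ttg value of these genes came near those of any other line. The ttg allele is a deletion, as listed in the paper. Whether genes near TTG1 were low in ttg through that deletion or through loss of TTG1 activity was not tested.

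DMR6 (AT5G24530), next to TTG1 and encoding an oxygenase that breaks down salicylic acid, had 10.24, 9.01 and 8.17 in gl2 and 3.47, 3.07 and 4.11 in ttg. NIC3 (AT5G23220), a nicotinamidase gene 107 places from TTG1, had 10.62, 10.54 and 10.59 in gl2 and 6.05, 4.55 and 5.78 in ttg. Between these genes, AT5G24460 averaged 9.18 in gl2 and 9.25 in ttg, and PRR5 (AT5G24470) 8.26 in gl2 and 8.17 in ttg, so that the low levels were not continuous along the chromosome. These neighbours were named after their values were seen. On the Duke arrays ttg was low as well, where TTG1 averaged 7.67 in cpc try and 4.84 in ttg, AT5G24450 7.59 in cpc try and 4.01 in ttg, and DMR6 8.68 in cpc try and 4.88 in ttg. When ttg was left out of the mean, TTG1 differed by -0.25, AT5G24490 by -0.009 and DMR6 by -0.79. Over all genes 18 were more than 3 log2 units higher in gl2 than in ttg and 1 was as much lower, AT5G41660, and 8 of the 18 lay within 300 places of TTG1.

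The 52 called genes away from both loci were 35 higher and 17 lower in gl2. Their number varied, at 7 without gl2 replicate 2, 11 without gl2 replicate 3, 32 without ttg replicate 1 and 34 without wer myb23 replicate 2. With the array series as a factor 8 were called. Among the 35 higher genes gl2 had the highest mean of the 21 Michigan groups for 22, and among the 17 lower genes the lowest for 8. Over all genes gl2 was highest for 2.59% and lowest for 3.39%. The genes were called on the same gl2 arrays, so an extreme rank was partly built in.

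CYP71B22 (AT3G26200), a cytochrome P450 gene, led the higher genes. It had 6.16, 7.65 and 6.64 in gl2, against 3.69, 3.63 and 3.74 in wer myb23, 5.80, 3.90 and 4.65 in gl3 egl3, and 3.92, 4.04 and 3.53 in ttg. One gl3 egl3 array came close to gl2, the others did not. The difference was 2.71 (standard error 0.38, adjusted p = 1.29e-05 in limma), and cpc try averaged 5.57 while wild type averaged 3.90. AT2G22750, which encodes a bHLH factor, had 6.45, 7.79 and 7.74 in gl2 and a lowest, median and highest hairy value of 4.07, 4.74 and 6.44. Its gl2 mean was the highest of the 21 groups and its cpc try mean of 3.69 the lowest (difference from the hairy lines 2.32, standard error 0.45, adjusted p = 0.00442 in limma). The call was lost without gl2 replicate 2 or 3, and the difference over all fits without 1 array lay between 2.08 and 2.75.

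A pair of called genes encode enzymes of phenylpropanoid metabolism. PAL1 (AT2G37040), the phenylalanine ammonia-lyase gene at the entry of the pathway, had 7.27, 7.43 and 7.10 in gl2, against 3.84, 6.39 and 5.65 in wer myb23, 6.32, 5.60 and 5.20 in gl3 egl3, and 4.37, 4.05 and 5.66 in ttg. All gl2 arrays were above all hairy arrays. The difference was 2.04 (standard error 0.46, adjusted p = 0.024 in limma), with means of 6.34 in wild type and 4.90 in cpc try. 4CL1 (AT1G51680), which encodes 4-coumarate CoA ligase and was named after its values were seen, had 7.52, 7.47 and 7.07 in gl2 and from 3.98 to 7.21 on the hairy arrays, with a median of 5.32. Its 2.06 difference (standard error 0.48, adjusted p = 0.0274 in limma) was widest against ttg, which averaged 4.59.

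Of the 16 phenylpropanoid genes these 2 were called higher (0.243% of all genes were), 11 were higher and 5 lower, and the median was 0.29. The list was added after PAL1 and 4CL1 had been seen among the called genes, so this count supports nothing. The calls of PAL1 and 4CL1 were lost without gl2 replicate 1, 2 or 3 and without wer myb23 replicate 1, that of 4CL1 also without ttg replicate 1. BGLU46 (AT1G61820), a beta-glucosidase that acts on lignin precursor glucosides, had 9.40, 10.69 and 9.43 in gl2 and 7.08 to 8.78 on the hairy arrays. It was higher in gl2 by 2.02 log2 units (standard error 0.41, adjusted p = 0.00712 in limma). Without gl2 replicate 2 the call was lost, with a value of 1.59.

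**Figure D4:**
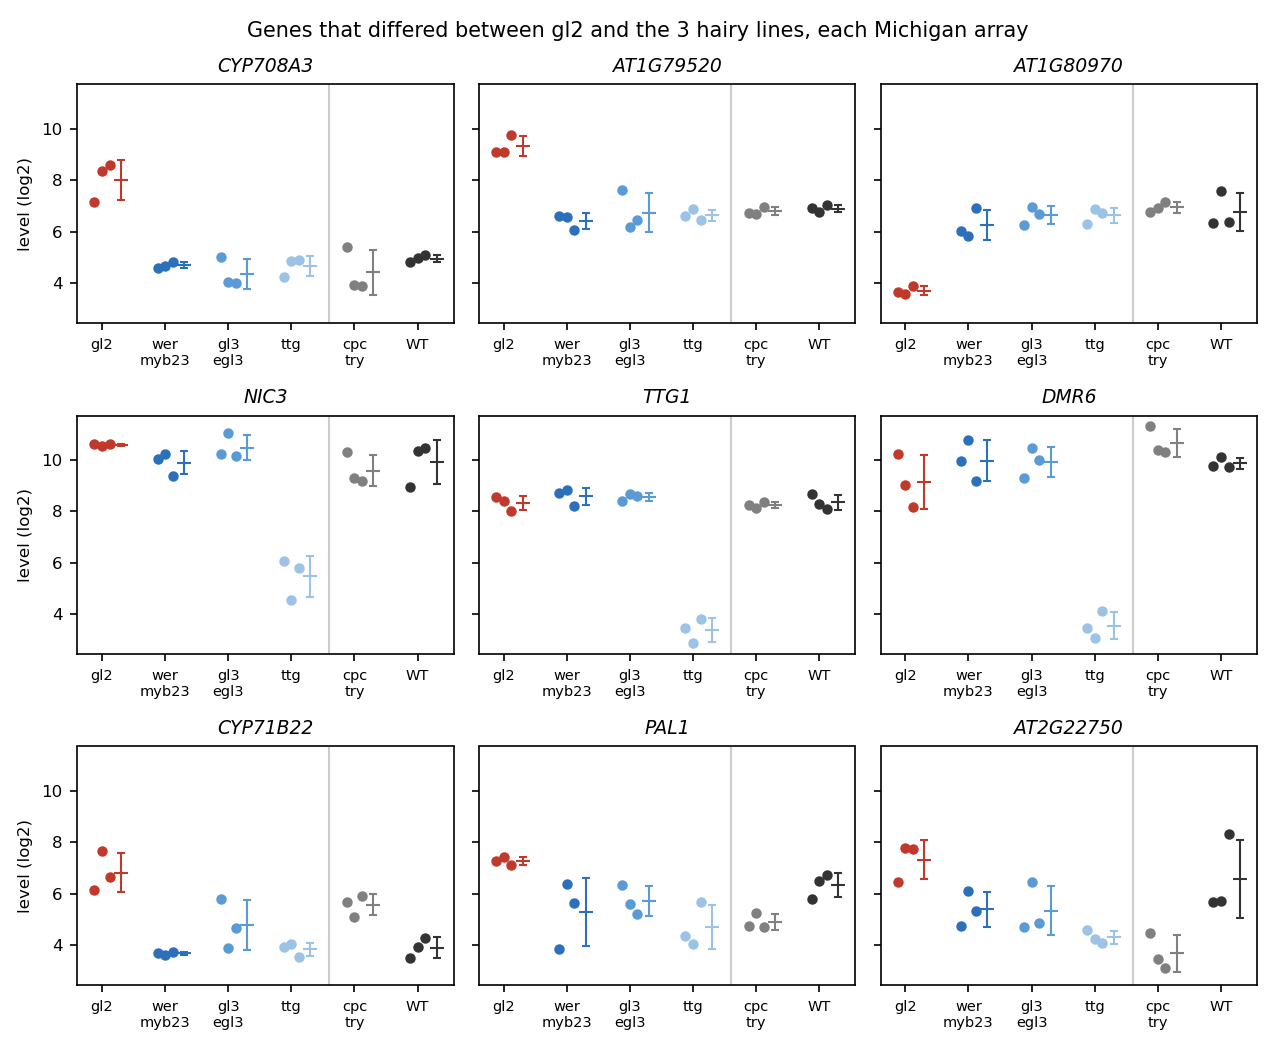
Log2 signal (vertical axes) of 9 called genes on each array of gl2, wer myb23, gl3 egl3, ttg, cpc try and wild type (horizontal axes); points are arrays and bars are the group mean ± SD (n = 3). Among the groups plotted, CYP708A3 and AT1G79520 were higher and AT1G80970 lower on the gl2 arrays than on the others, NIC3, TTG1 and DMR6 were lower on the ttg arrays than on the others, and PAL1 was higher in gl2 than on all hairy arrays.

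Of the genes called higher, AS2 and ENP have known roles in development. AS2 (AT1G65620), a LOB-domain gene of leaf polarity, had 7.92, 8.58 and 8.80 in gl2 and 6.19 to 7.83 on the hairy arrays (difference 1.54, standard error 0.30, adjusted p = 0.00406 in limma). Wild type averaged 7.98 and cpc try 7.89, both above the mean of every hairy line. The wild-type arrays were 7.30, 7.56 and 9.08, so that mean leaned on 1 array. ENP (AT4G31820), which acts with the PINOID kinase in auxin-dependent organ formation, had 8.16, 9.56 and 8.06 in gl2 and 6.07 to 7.73 on the hairy arrays (difference 1.60, standard error 0.36, adjusted p = 0.022 in limma). For ENP too, wild type (8.08) and cpc try (8.14) were above the hairy lines, whose means were 6.73 in wer myb23, 7.16 in gl3 egl3 and 7.11 in ttg. On the Duke arrays cpc try did not pass for either gene. Its differences from the hairy lines there were 0.53 for AS2 (adjusted p = 0.32 in limma) and 0.25 for ENP (adjusted p = 0.452 in limma).

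AT4G13230 had 6.05, 7.58 and 7.47 in gl2, and SBT3.12 (AT4G21326), a subtilisin-type protease gene, 5.26, 6.47 and 6.80. Their differences were 1.94 (adjusted p = 0.00387 in limma) and 1.72 (adjusted p = 0.000807 in limma). For both, wild type and cpc try stayed at the hairy level, at 4.80 and 5.08 for AT4G13230 and at 4.16 and 4.70 for SBT3.12. AT4G22960 was higher by 2.17 (adjusted p = 0.0198 in limma), with 7.26, 8.46 and 8.32 in gl2. CYP705A1 (AT4G15330), named after its values were seen, was the 1 called gene away from GL2 that differed from each hairy line, with 4.21, 5.99 and 5.37 in gl2 and 3.30 to 4.32 on the hairy arrays. Its call was lost without gl2 replicate 2, and the difference of 1.43 lay between 1.03 and 1.92 over the fits without 1 array. Of this set, the call of AT4G13230 and of AT4G22960 was lost without gl2 replicate 2 or 3, that of SBT3.12 without gl2 replicate 3, that of AS2 without gl2 replicate 2 or 3 and that of ENP without gl2 replicate 2 or wer myb23 replicate 2.

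Further called genes away from the loci, named after their values were seen, overlapped the hairy range. GH9B6 (AT1G23210), a cellulase family gene, had 4.74, 6.75 and 7.12 in gl2 and 3.27 to 5.31 on the hairy arrays, with 5.98 in cpc try and 5.45 in wild type (difference 1.98, adjusted p = 0.0411 in limma). AT3G28610 had 7.20, 5.78 and 5.85 in gl2 and 3.29 to 6.59 on the hairy arrays (difference 1.98, adjusted p = 0.000403 in limma). It was called without any 1 array, whereas GH9B6 lost its call in 7 of the 12 such fits, those without gl2 replicates 2 and 3, gl3 egl3 replicates 1 and 2, ttg replicates 1 and 3 and wer myb23 replicate 1. CYP81D5 (AT4G37320), another cytochrome P450 gene, had 7.59, 7.48 and 6.98 in gl2 and 4.86 to 7.16 on the hairy arrays (difference 1.58, adjusted p = 0.00743 in limma). CNGC19 (AT3G17690), a cyclic nucleotide-gated channel gene, was higher by 1.09 (adjusted p = 0.0155 in limma). GSTU8 (AT3G09270), a glutathione transferase gene, averaged 11.24 in gl2, 10.75 in wer myb23, 11.06 in gl3 egl3 and 8.33 in ttg, so its call rested on ttg. Without gl2 replicate 1 or 2 CYP81D5 and CNGC19 were not called, and GSTU8 not without any 1 gl2 array.

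Among the 17 lower genes away from the loci, those with non-overlapping values and the largest differences were, after AT3G19320, AT3G59730, a lectin receptor kinase gene (-1.79), AT3G61010 (-1.60), AT3G61200, a thioesterase family gene (-1.24), and AT4G16710, a glycosyltransferase family gene (-1.12). AT3G59730 had 4.45, 5.17 and 4.93 in gl2 and 5.73 to 8.71 on the hairy arrays, and its call (adjusted p = 0.0434 in limma) was lost in 9 of the 12 fits without 1 array. It was kept without replicate 3 of gl3 egl3 and without replicates 1 and 3 of wer myb23, and the difference lay between -1.95 and -1.58. AT4G16710 had 6.39, 6.64 and 5.94 in gl2 and 7.15 to 7.73 on the hairy arrays (standard error 0.21, adjusted p = 0.00275 in limma), and its call was lost without gl2 replicate 3. The call of AT3G61010 was lost without gl2 replicate 1 or 2, and that of AT3G61200 without gl2 replicate 2 or 3. For AT4G16710 the cpc try mean of 6.14 was near that of gl2, while wild type averaged 7.07. CEF (AT3G44340), a SEC24-type coat protein gene of vesicle transport named after its values were seen, had 8.97, 8.74 and 8.52 in gl2 and 9.49 to 10.04 on the hairy arrays. The means were 8.74 in gl2, 9.74 in wer myb23, 9.75 in gl3 egl3 and 9.74 in ttg (adjusted p = 0.00442 in limma for the whole comparison), and the call was lost without gl2 replicate 2 or 3.

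A gene that needs the complex but not GL2 would be high in wild type and cpc try as well as in gl2. These comparisons share the hairy arrays with the one above, so the levels are only set side by side. Of the 35 genes called higher away from the loci, the wild-type mean was nearer to gl2 than to the hairy mean for 17, the cpc try mean for 17, and both for 9. Such shares were not counted over all genes. Wild type had the same mix of array series as gl2, while cpc try had numbered arrays only. Nearness of wild type to gl2 was thus confounded with array series. In 6 of the 35 both wild type and cpc try were above each hairy line. AT1G60010, for example, chosen after its values were seen, had 9.46, 10.40 and 10.32 in gl2 and 8.81 to 9.78 on the hairy arrays, with means of 10.24 in wild type and 10.44 in cpc try. gl2 was higher by 0.85 than the hairy lines (standard error 0.20, adjusted p = 0.0305 in limma). AT2G23910, chosen in the same way, had 7.41, 7.65 and 7.76 in gl2 and 5.69 to 7.03 on the hairy arrays, with 7.64 in wild type and 7.13 in cpc try (difference 1.25, adjusted p = 0.0356 in limma). The call of AT1G60010 was lost in 7 of the 12 fits without 1 array, and that of AT2G23910 in 8, among them those without gl2 replicate 2 or 3, and their differences lay between 0.68 and 1.15 for AT1G60010 and between 1.17 and 1.35 for AT2G23910.

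The Duke arrays share none with this comparison and hold no gl2 line. There, cpc try was higher than the hairy lines in 970 genes (4.52%) and lower in 931 (4.34%) at 5% FDR. Of the 52 genes called higher in gl2, 11 were higher in cpc try at Duke (21.2%) and 2 were lower. Of those 11, 5 lay within 1000 genes of TTG1, and with ttg left out of the Duke mean the counts were 5 higher and 5 lower. Of the 33 genes called lower in gl2, 3 were higher and 3 lower in cpc try at Duke (9.09%). PMEAMT (AT1G48600), which encodes a methyltransferase of choline synthesis and was named after its values were seen, was among the 11. It had 9.17, 9.44 and 9.67 in gl2 and 7.80 to 8.96 on the hairy arrays (difference 0.98, adjusted p = 0.0132 in limma), and at Duke cpc try was higher by 1.15 (standard error 0.15, adjusted p = 0.00163 in limma). Its call for gl2 was lost without gl2 replicate 2 or 3, and over all fits without 1 array the gl2 difference lay between 0.86 and 1.11. Its probe set gave the same values as that of AT1G48598, so these genes cannot be told apart and are 1 signal. The counts of called genes given here hold this signal as 2 genes.

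Flavonoid genes, on which TTG1 and its bHLH partners act in other tissues, did not pass. Of the 18 measured, limma called 0, and 3 had an unadjusted p under 0.05, beside 6.98% of all genes. Higher in gl2 were 13, and the median difference was 0.29. CHS (AT5G13930), chalcone synthase at the head of the pathway, had 8.44, 8.65 and 9.19 in gl2, against 5.55, 8.15 and 7.02 in wer myb23, 7.92, 8.54 and 7.19 in gl3 egl3, and 6.52, 5.46 and 7.04 in ttg. Only 1 hairy array reached the lowest gl2 value. The difference of 1.72 had a standard error of 0.57 (adjusted p = 0.289 in limma), it was 1.83 without gl3 egl3 replicate 2 (adjusted p = 0.253 in limma), and cpc try averaged 8.42 and wild type 7.88. CHI (AT3G55120) differed by 1.11 and the flavonol synthase gene FLS1 (AT5G08640) by 1.12, neither of which passed (adjusted p = 0.451 for CHI and 0.688 for FLS1 in limma). Among 8 HD-ZIP IV genes, the family of GL2, none was called. HDG1 (AT3G61150) had the largest difference of the 8 at 0.91 (adjusted p = 0.186 in limma), with means of 7.79 in gl2, 7.61 in wer myb23, 7.19 in gl3 egl3 and 5.85 in ttg. Of the 8, 6 were higher and 2 lower in gl2, and 3 were higher at an unadjusted p under 0.05, as were 3.24% of all genes.

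**Figure D5:**
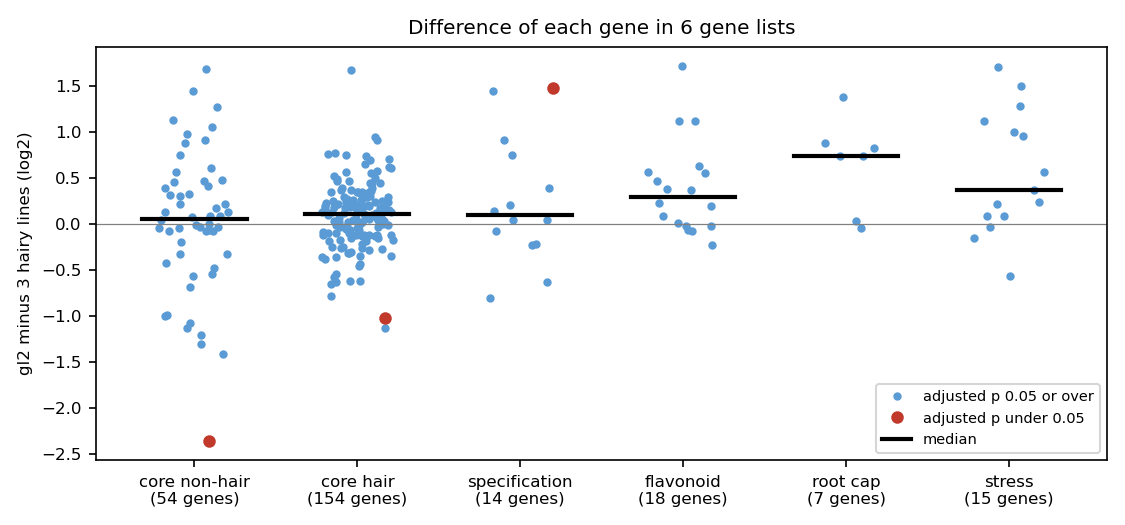
Log2 difference between gl2 and the 3 hairy lines (vertical axis) for each gene of 6 lists (horizontal axis), with a line at each list's median. Medians lay at 0.06 for the core non-hair genes and 0.11 for the core hair genes, close to the -0.02 of all genes, and at 0.74 for the 7 root cap genes.

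Root cap and stress genes were mostly higher in gl2 than in the hairy lines, and none of them passed 5% FDR in limma. WER::GFP also marks the lateral root cap, and of 7 root cap genes 6 were higher in gl2, with a median of 0.74. The mean level of this list was 9.92 to 10.25 on the gl2 arrays, 8.68 to 10.24 on the hairy arrays and 9.41 to 10.57 in wild type. RCPG (AT1G65570), a polygalacturonase gene of the outer root cap, had 11.10, 11.25 and 11.08 in gl2 and 8.59 to 10.98 on the hairy arrays, without overlap (difference 1.38, adjusted p = 0.52 in limma). None of the 7 was called, and 4 were higher at an unadjusted p under 0.05, as were 3.24% of all genes. Of 15 stress genes 12 were higher in gl2, with a median of 0.37, and their mean level was 10.14 to 10.45 in gl2 and 9.13 to 10.34 on the hairy arrays. HSP70 (AT3G12580), a heat shock gene, had 9.66, 9.13 and 10.61 in gl2 and 7.33 to 8.97 on the hairy arrays (difference 1.50, adjusted p = 0.2 in limma). None of the 15 was called, and 7 were higher and 1 lower at an unadjusted p under 0.05. Over all genes these shares were 3.24% higher and 3.74% lower. The part of the root cap and stress levels in the differences reported above was not tested. The median difference was 0.00 for 8 ground tissue genes, 0.10 for 8 stele genes and 0.20 for 5 meristem genes, of which none was called and none had an unadjusted p under 0.05.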

How the data were processed

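Sorted root epidermal cells of 25 groups were measured on ATH1 arrays at Michigan and Duke. As deposited by the authors, each gene has 1 log2 value per array, from RMA (robust multichip averaging) including a quantile step, and no scaling was added here. How normalization was divided between the facilities is not given in the sources used here. After 64 control probe sets were dropped, 21440 genes remained, 21222 of them with a locus in TAIR10.1. Of these genes, 219 had values identical to those of another.

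In R 4.3.3 with limma 3.58.1, 1 mean per group was fitted to the 63 Michigan arrays (lmFit, eBayes). Calls were made at 5% FDR, with the Benjamini-Hochberg adjustment taken across the whole table. Duke arrays were fitted apart. Every adjusted p in the text comes from these fits. The precision is limited by 3 arrays per group. Replicates were labelled biological, and p-values measure the spread between them. The fit was tested on simulated data, where 5% of its calls were false. These data had independent normal noise, with no array series effect and no outlying array. The share of false calls in the real data is therefore not known from them.

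Genes named were the mutated genes, called members of the lists, the specification list, called core genes and the 15 largest called differences in each direction without overlap. All other genes named, uncalled list members given as examples among them, were picked with their values in view. The members and lists were chosen with earlier results of these data known. The study chose its core lists on the hairy and cpc try arrays. Among the alternatives, gene-by-gene array weights stood in for the default ones, whose estimate did not converge. The promoter motif description was not run, and no sequences were analysed here. Alternatives were another fit, scaling, filter, threshold or set of lines, and leaving out each array.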

Additional observations from a re-analysis of the deposited data

How the results depend on the processing

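Of the 85 called genes, 5 were kept under every alternative (AT1G79520, AT1G69800, AT1G73530, AT1G80960 and AT1G80970), and 80 were lost under 1 or more. In a fit of the 12 arrays alone 38 genes were called (23 higher, 15 lower; 20 away from the loci; 6 against each line), and 0 core non-hair and 0 core hair genes. With the array series as a factor these counts were 27 (19 and 8; 8 away from the loci), with 0 and 0 core genes, and with numbered arrays only, where gl2 has 1 array that is assumed to vary like the other groups, 13 (8 and 5; 2; 2 against each line), with 0 and 0. At 1% FDR 35 genes were called (22 and 13; 16; 6), with 0 core hair genes, and 741 at Duke. An unadjusted p under 0.01 gave 483 (259 and 224; 391; 57), with 5 core non-hair, 2 core hair and 1 flavonoid gene. Gene-by-gene array weights, added after seeing the data, gave 2468 (1238 and 1230; 2068; 200), with 15 core non-hair, 6 core hair and 4 flavonoid genes, and 5082 at Duke, where 1901 were called otherwise. The mean of wer myb23 and ttg gave 140 genes (83 and 57; 99) and 2 core hair genes, and that of wer myb23 and gl3 egl3 gave 56, with 33 higher, 32 away from the loci and 0 core hair genes. With the mean of gl3 egl3 and ttg, 0 core hair genes and 3614 Duke genes were called. Quantile normalization gave 0 core hair genes, and 2-fold with 5% FDR gave 813 Duke genes. Without gl3 egl3 replicate 2 and wer myb23 replicate 2, also added after seeing the data, 17 genes were lower, with 4 core non-hair and 0 core hair genes called. Those arrays were left out for their high level on the core non-hair genes.

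When each array was left out in turn, the count ranged from 26 to 101 (18 to 56 higher, 8 to 45 lower, 7 to 66 away from the loci, 6 to 17 against each line), with 0 to 4 core non-hair, 0 to 1 core hair and 0 flavonoid genes, and from 704 to 3418 at Duke, where it was 704, 813 and 1221 without cpc try replicate 3, 2 and 1 and 3418 without wer myb23 replicate 2. Fewer arrays enter such a fit. Leaving ttg out turned the sign of TTG1 (-0.25), AT5G24490 (-0.009) and DMR6 (-0.79), whose differences ttg carried. The replicate numbers were not taken as pairs, since same-numbered arrays of gl2 and a hairy line correlated between -0.18 and 0.48, over 0.1 in 3 of 9 pairs. With the replicate block 80 genes were called (49 and 31), 12 against each line, 0 core hair genes and 1933 at Duke. The filter on dim genes, the median shift and the trended spread kept all these counts within 1.5 times. The cause of the other shifts was not tested.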
